A study of Mus musculus with 2 samples.

Results

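The p53 pathway was described here through 31 genes, chosen by symbol from a list that holds p53 itself (Trp53), the genes that restrain it and genes that p53 is known to activate. All 31 were found among the 32285 genes of the feature tables. By role they comprised 6 feedback genes, 8 genes of cell cycle arrest and stress, 12 genes of cell death and 5 genes of DNA repair. The genes were measured by single-cell RNA sequencing in mouse myeloid-derived suppressor cells (MDSC), immature cells of the myeloid lineage known for suppressing T cells. The cultures were grown with IL-6 and GM-CSF at 40 ng/mL each and were taken at day 4 as live cells sorted for CD11b. One culture received the solvent DMSO. The other received 50 nM selinexor, an inhibitor of exportin 1 (Xpo1). Exportin 1 moves cargo proteins out of the nucleus, and p53 is one of these cargoes.

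The transcription factor p53 is kept at a low level by the ubiquitin ligase MDM2 and its partner MDM4, and it accumulates when DNA damage or other stress interrupts that control. It then activates genes that halt the cell cycle, repair DNA or trigger apoptosis, and also Mdm2, which closes a negative feedback loop. Myeloid progenitors divide, whereas maturing neutrophils have left the cell cycle and are short-lived. Transcript counts do not show where in the cell a protein is, so the export of p53 was not measured.

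Each group held 1 library. No difference therefore has a replicate check, no test was made, and all intervals are 95% intervals that cover counting error only. The labels do not name the cells from which the cultures were started, and nothing in them says whether either library came from more than 1 culture. The kept cells numbered 1743 in the DMSO library, with 14222344 unique molecular identifiers (UMIs, counted transcript molecules), and 1967 in the selinexor library, with 12841480 UMIs. The median cell had 7788 UMIs in the DMSO library and 3984 in the selinexor library. Itgam, which encodes the sorted protein CD11b, had 4345 and 5294 UMIs. Marker genes of T cells, NK cells and erythroid cells did not reach 50 UMIs in any case, so these cells' defining markers were at or near 0. The libraries differed in the kinds of cells they held. Monocyte-like cells (cluster 1) made up 0.459% of DMSO cells and 17.6% of selinexor cells, an unnamed cluster led by Csta3 and Dmkn (cluster 2) made up 18.7% and 0.203%, and the low-UMI late neutrophil-like cluster 0 made up 13.3% and 31.8%. Clusters 1 and 2 may thus mark a library as much as a cell type. In values over whole libraries, a change in the cells present and a change within cells cannot be told apart.

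Target genes are activated by p53 through response elements in their DNA, which can lie in promoters, in introns or further away. Promoter matches are shown here for 4 members that stand for arrest, feedback and death and whose levels are described next. A response element is a pair of 10-base units set side by side or a short spacer apart. The consensus unit was searched in RefSeq promoters (GRCm38.p6, from 250 bases before to 50 bases after each start), in which 23 of the 31 genes had an entry. The unit is its own reverse complement, so both strands were read at once. Of the 23 genes, 9 held at least 1 unit, against 9.55% of 27025 genes with a promoter in the same table. A pair of units with a spacer of at most 13 bases occurred in 1 of the 23, Cdkn1a, and in 20 genes in all (0.0740% of them). In the sequences that follow, which run 5′ to 3′ on the gene's strand, capitals mark the matching units.
Cdkn1a (chr17:29090891-29090952, plus strand): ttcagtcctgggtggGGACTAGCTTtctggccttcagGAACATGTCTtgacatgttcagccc
Mdm2 (chr10:117710920-117710959, minus strand): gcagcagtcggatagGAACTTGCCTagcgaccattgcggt
Ccng1 (chr11:40755447-40755486, minus strand): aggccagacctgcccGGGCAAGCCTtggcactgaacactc
Bax (chr7:45467075-45467114, minus strand): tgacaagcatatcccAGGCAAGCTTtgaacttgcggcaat

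The units of Cdkn1a began 73 and 51 bases before the start with a spacer of 12 bases. Those of Mdm2, Ccng1 and Bax began 186, 185 and 201 bases before it. Aen, Ei24, Sesn1, Trp53 and Polk each held a single unit as well. A match describes letters in this window and is not a measured binding site, and elements outside the window were not searched. The values of the 4 genes shown are given below for each library, and none of the 4 was called higher or lower over whole libraries.

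Across whole libraries, 5 of the p53 genes stood higher with selinexor (Pmaip1, Apaf1 and Bbc3 of cell death, Phlda3 of feedback and Zmat3 of arrest and stress), while Cdkn1a, Bax and Trp53 differed little. Values are given as UMIs scaled to the total of the library (CPM) and as the difference of log2(CPM + 1), selinexor minus DMSO. The added 1 makes the difference of a sparse gene smaller than its plain ratio. The interval in brackets is that of the plain ratio without the added 1. A gene was called higher or lower at a difference of 1.5-fold on the log2(CPM + 1) scale. At least 50 UMIs over both libraries were found for 30 of the 31 genes, and Eda2r, a death receptor gene of the TNF receptor family, had 2 UMIs in each library and was not compared. Of the 30 genes, 5 were higher with selinexor (16.7%), where 9.83% of all 10393 genes with as many UMIs were, and 0 were lower, where 3.88% of all genes were. The median difference was 0.21, beside 0.13 over all genes. It became -0.07 over 29 genes when both libraries were given the same mix of cell clusters, beside 0.03 over all genes. In that weighting 2 of the 29 genes were higher and 5 lower, where 9.12% and 6.59% of all genes were. The weighting used clusters with at least 20 cells in each library (1378 and 1448 cells). Clusters 1, 2, 11, 12 and 13 were therefore left out of it. The scaling also moved the count. TMM scaling lowered the median of all genes by 0.12, left 3 of the 30 genes higher (Pmaip1, Phlda3 and Zmat3), and turned the share of higher among all called genes from 71.7% to 49.1%. Median-of-ratios scaling gave 3 genes, where 5.62% of all genes were higher, and 46.8%. The number of genes called higher thus fell among all genes as well.

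**Figure D1:**
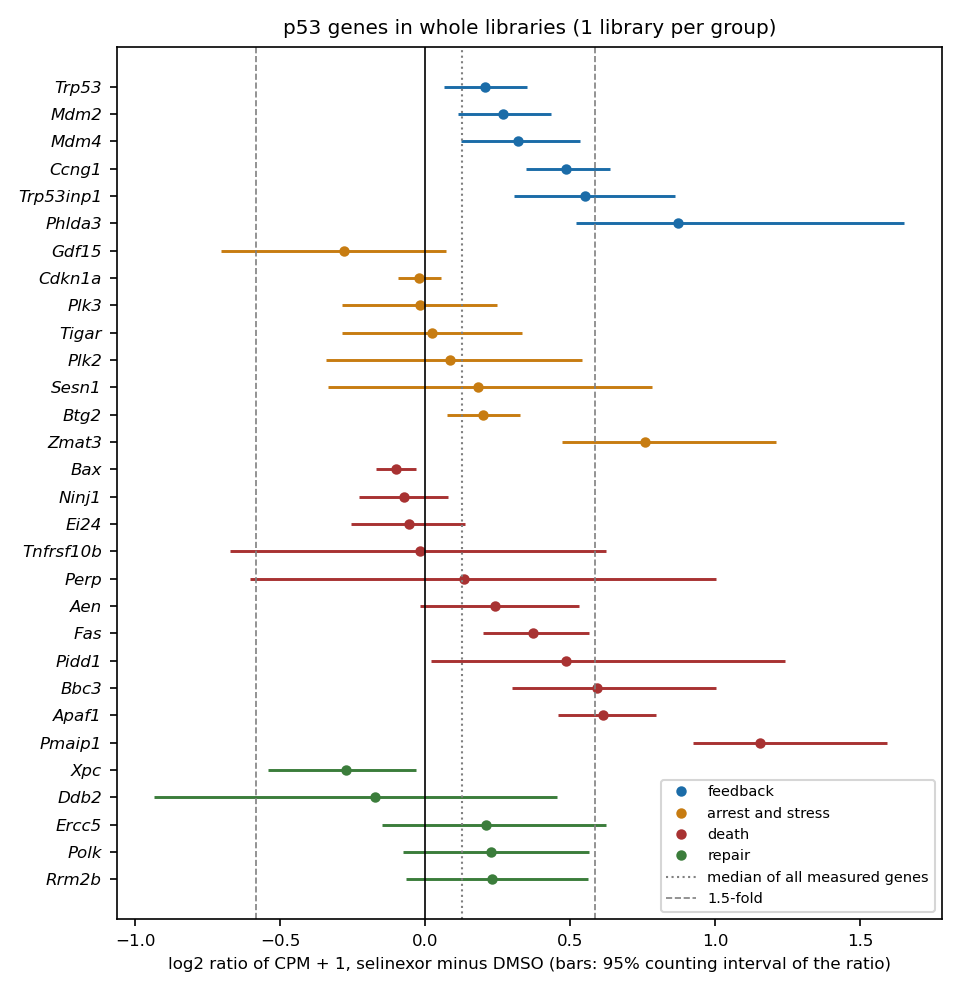
Difference in log2(CPM + 1) between the selinexor and DMSO libraries (horizontal axis) for the 30 compared p53 genes (vertical axis), coloured by role, with 95% counting intervals of the ratio as bars. The dotted line is the median of all genes (0.13) and the dashed lines are 1.5-fold. Pmaip1 has the highest value (1.16), all 6 feedback genes lie above 0 (3 of them below 0 with the same cell mix), and no gene lies beyond 1.5-fold on the low side.

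The feedback genes were Trp53 and 5 genes whose products curb p53 or tune its signal. All 6 were above 0, with a median of 0.40, and 1 of them passed 1.5-fold, but with the same cell mix in both libraries Mdm2 (-0.17), Ccng1 (-0.13) and Trp53 (-0.0025) were below 0. Trp53 was at 56.0 CPM with DMSO and 64.6 CPM with selinexor, a difference of 0.20 (0.07 to 0.35). Mdm2, the ligase that marks p53 for degradation, was at 42.4 and 51.2 CPM, a difference of 0.27 (0.11 to 0.44). Mdm4, which binds and masks the activation domain of p53, was at 26.2 and 32.9 CPM (0.32, interval 0.12 to 0.53). These 3 genes of the core loop thus differed by well under 1.5-fold. Ccng1, which encodes cyclin G1, a partner of phosphatase 2A that acts on MDM2, was at 48.9 and 68.8 CPM (0.48, interval 0.35 to 0.64). Trp53inp1, a nuclear protein that promotes p53 phosphorylation, was at 13.4 and 20.01 CPM (0.55, interval 0.31 to 0.86). Phlda3, whose product competes with AKT for membrane lipids, was the 1 called gene, at 2.95 and 6.23 CPM (0.87, interval 0.52 to 1.65) from 42 and 80 UMIs. Its extra UMIs were uneven across cells. In cells holding a UMI of the proliferation genes Mki67 or Top2a it had 23 UMIs with DMSO and 64 with selinexor (2.68 and 7.67 CPM), and in the other cells 19 and 16 (3.36 and 3.56 CPM). In the thinned data, where every cell is cut to 2000 UMIs, its difference was -0.15.

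Among the arrest and stress genes the median was 0.05, with 5 genes above 0 and 3 below, and 1 gene was called. With the same cell mix in both libraries this median fell below 0. Cdkn1a, Plk2 and Gdf15 were then called lower, with values given in the closing section. Cdkn1a (chr17:29090976-29100727), which encodes the cyclin-dependent kinase inhibitor p21, was at 225.9 CPM with DMSO and 222.7 CPM with selinexor. The difference was -0.02 (-0.09 to 0.05), from 3213 and 2860 UMIs, and the counting interval of the ratio ran from 0.937-fold to 1.04-fold. Single clusters differed by more, as described further on. Btg2, an antiproliferative gene of the BTG/TOB family, was at 71.1 and 81.8 CPM (0.20, interval 0.08 to 0.33). Zmat3, an RNA-binding zinc finger gene, was the called gene at 7.10 and 12.7 CPM (0.76, interval 0.47 to 1.21). Of its 163 UMIs with selinexor, 88 lay in the monocyte-like cluster 1, which held 8 DMSO cells. Gdf15, a secreted stress cytokine, was at 9.49 and 7.63 CPM (-0.28, interval -0.71 to 0.07). Plk2 and Plk3, polo-like kinases induced by stress, had 0.09 and -0.02, with intervals that include 0. The same held for Sesn1, which encodes sestrin 1, a brake on mTORC1, at 0.18, and for Tigar, a fructose bisphosphatase that lowers glycolysis, at 0.02.

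The death genes had a median of 0.24 over 11 compared genes, 3 of which were higher. Pmaip1, which encodes the BH3-only protein NOXA, was at 7.80 CPM with DMSO and 18.6 CPM with selinexor, 2.38-fold (1.90 to 3.01). Its difference of 1.16 was the highest among the 30 genes and rested on 111 and 239 UMIs. It stayed between 0.73 and 1.84 over the alternative settings run. Bbc3, which encodes the other p53-induced BH3-only protein PUMA, was at 8.30 CPM with DMSO and 1.57-fold that with selinexor (0.59, interval 0.30 to 1.00). Apaf1, the scaffold of the apoptosome on which caspase-9 is activated, was at 34.5 and 53.2 CPM (0.61, interval 0.46 to 0.80). Both of these lay close to the 1.5-fold line. Bax, the pore-forming effector of mitochondrial apoptosis on which the BH3-only proteins act, was at 253.4 and 236.3 CPM (-0.10, interval -0.17 to -0.03). Thus 2 BH3-only genes and the apoptosome gene were called higher and the effector gene was not. Fas, the death receptor for Fas ligand, was at 32.3 and 42.1 CPM (0.37, interval 0.20 to 0.56), and had -0.05 under a stricter filter on detected genes and mitochondrial UMIs per cell. Ninj1, which ruptures the plasma membrane of dying cells, was at 53.4 and 50.8 CPM (-0.07, interval -0.23 to 0.08). Pidd1, which assembles a platform for caspase-2, had 41 and 57 UMIs and a difference of 0.49 (0.02 to 1.24). Aen, an apoptosis-enhancing nuclease, had 0.24, Perp, a gene of junctions and death, 0.13, Tnfrsf10b, the TRAIL receptor, -0.02, and Ei24, a gene of the endoplasmic reticulum, -0.06, and all 4 intervals include 0. With the same cell mix in both libraries, Tnfrsf10b and Ei24 were called lower.

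No repair gene was called, and the median was 0.21. Xpc, which recognises DNA lesions in nucleotide excision repair, was at 21.4 CPM with DMSO and 17.5 CPM with selinexor, a difference of -0.27 (-0.54 to -0.03). It was the only one of the 5 whose interval left out 0. Ddb2, which hands ultraviolet lesions to XPC, had 43 and 33 UMIs and a difference of -0.17. Polk, a translesion polymerase, Rrm2b, the p53-inducible subunit of ribonucleotide reductase, and Ercc5, an excision endonuclease, had 0.23, 0.23 and 0.21. Their intervals reached below 0.

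Genes upstream and downstream of the members were read from 3 further lists. Among regulators and partners of p53, 21 of 25 genes had enough UMIs, 2 were higher and 0 lower (9.52% and 0%, where 9.83% and 3.88% of all genes were), and the median was 0.20. The share higher was thus near that of all genes. The called genes were Cop1, a ubiquitin ligase for p53, at 0.63 (47.4 and 74.1 CPM) and Sirt1, a deacetylase of p53, at 0.59 (11.9 and 18.4 CPM). The kinase gene Hipk2 had 0.58 and Ppp1r13b, which encodes the p53 cofactor ASPP1, -0.43. The family members Trp63 and Trp73 had 0 UMIs in both libraries. Among further direct targets, 22 of 26 genes had enough UMIs, 4 were higher and 2 lower (18.2% and 9.09%, above the shares over all genes in both directions), and the median was 0.18, beside 0.13 over all genes. The largest differences were those of Klf4, a transcription factor that also served as a monocyte marker, at 0.88 (59.8 and 111.2 CPM), Fdxr, a mitochondrial reductase, at -0.86 (128 and 58 UMIs), Slc19a2, a thiamine transporter, at 0.73, and Dcxr, a carbonyl reductase, at -0.72. The third list held 24 cell cycle genes that p53 is known to repress through p21 and the DREAM complex. All 24 had enough UMIs, 0 were higher and 2 lower (0% and 8.33%), 20 were below 0, and the median was -0.22. Plk1 had -0.61, Cdk1 -0.59, Ccna2 -0.58 and Ccnb2 -0.55. The cycling cell-like cluster made up 9.81% of DMSO cells and 5.29% of selinexor cells, and within it the median of the 24 genes was -0.00, with 12 genes above 0 and 12 below. Mki67, Top2a, Birc5, Cdk1 and Ccnb1 of this list were also markers that named the cluster, and the list was not left out of the clustering. The value within the cluster therefore depends on how its cells were grouped. The part of the cycling share in the value over whole libraries was not tested. Of all cells, 715 with DMSO and 721 with selinexor held a UMI of Mki67 or Top2a.

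Levels of the p53 genes differed widely between cell clusters of the same library. Cells of both libraries were clustered together without the 31 genes, so that no p53 gene defined a cluster, and clusters were named from marker genes. The neutrophil lineage was seen as early neutrophil-like cells (cluster 9, led by the primary granule genes Ctsg, Elane and Mpo), intermediate neutrophil-like cells (clusters 3 and 10, with the secondary granule genes Ltf, Camp and Ngp) and late neutrophil-like cells (clusters 0, 4 and 7, with genes such as Csf3r, Mmp9, Cxcr2 and Retnlg). The other named clusters with at least 30 cells in a library were monocyte-like (1), cycling cell-like (5), macrophage-like (6) and dendritic cell-like (12) cells. Clusters 2, 8 and 11 remained unnamed. Cluster 0 was named despite a median of 1192 UMIs per DMSO cell and 1052 per selinexor cell, far below the library medians.

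The summed level of the p53 genes, in which Cdkn1a and Bax weigh most, was highest in cluster 0, at 2788 CPM with DMSO and 2276 CPM with selinexor. It was lowest in the intermediate neutrophil-like clusters, at 600 CPM in cluster 10 with DMSO and 677 CPM in cluster 3 with selinexor. Cluster 0 held the highest level of 11 of the genes in the DMSO library and of 7 in the selinexor library. The share of all genes with their highest level in cluster 0 was not computed, so these counts are not read as a trait of the p53 genes. Some of the 11 rested on few UMIs in this shallow cluster, such as Pidd1 (2 UMIs), Aen and Polk (9 each) and Bbc3 (10).

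**Figure D2:**
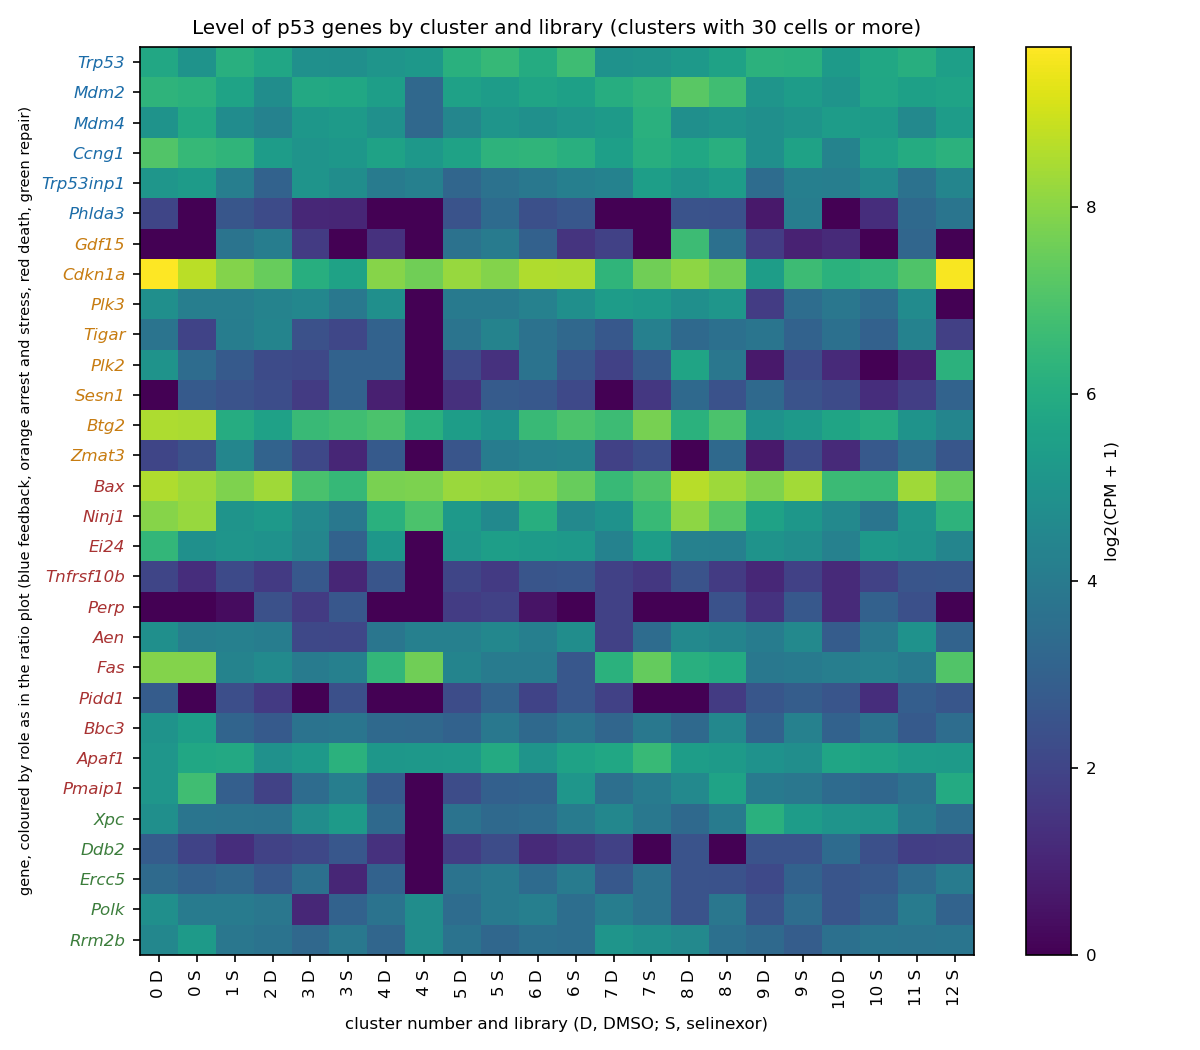
Level of 30 p53 genes (rows, coloured by role) in each cluster and library (columns, D for DMSO and S for selinexor, clusters with at least 30 cells in that library), as log2(CPM + 1) by colour. Cdkn1a and Bax are bright in most columns, and Cdkn1a, Btg2, Ninj1 and Fas are brighter in cluster 0 than in the early and intermediate neutrophil-like clusters 9, 3 and 10. Dark cells in column 4 S rest on 35 shallow cells.

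Cdkn1a varied over a wide range along the neutrophil lineage. In the DMSO library it was at 41.6 CPM in early neutrophil-like cells and at 66.6 and 72.4 CPM in the intermediate clusters 3 and 10. It then was at 81.2, 247.4 and 839.4 CPM in the late clusters 7, 4 and 0. The interval in cluster 0 (743 to 945 CPM) did not overlap that of any other DMSO cluster, whereas clusters 7, 10 and 3 could not be ordered within counting error. In the selinexor library the highest level was that of the 35 dendritic cell-like cells at 778 CPM (693 to 870). Cluster 0 followed at 419 CPM (373 to 470), and intermediate cluster 3 was lowest at 47.4 CPM. The macrophage-like and cycling cells lay between, at 374.9 and 293.9 CPM with DMSO and at 366.9 and 242.7 CPM with selinexor.

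Several death and arrest genes had their highest level in the same late cluster. Fas was highest in cluster 0 at 242 CPM in either library and lowest in early neutrophil-like cells with DMSO (13.7 CPM) and in macrophage-like cells with selinexor (5.22 CPM, 3 UMIs). Btg2 was highest in cluster 0 at 361 and 357 CPM, and Bbc3 at 30.6 and 42.5 CPM. Pmaip1 was highest there as well, at 33.7 CPM with DMSO (17 to 60) and 104.8 CPM with selinexor (82 to 132). With DMSO its interval in cluster 0 overlapped those of clusters 3, 7, 8, 9 and 10, whereas with selinexor it overlapped that of the dendritic cell-like cluster 12 alone. Ninj1 was at 245.1 and 293.2 CPM in cluster 0 and at 268.7 and 142.9 CPM in cluster 8. With DMSO these clusters could not be ordered within counting error.

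Other genes had their highest level elsewhere. Mdm2 was highest in unnamed cluster 8, a cluster led by Gpnmb, Ccrl2 and Ccl4, at 150 CPM with DMSO (103 to 211) and 105 CPM with selinexor (77 to 140). Of its 33 DMSO UMIs there, 13 came from a single cell. Xpc was highest in early neutrophil-like cells at 71.3 and 40.8 CPM, and with DMSO its interval (59 to 85) stood above that of every other cluster. Trp53 was highest in early neutrophil-like cells with DMSO (75.3 CPM) and in macrophage-like cells with selinexor (102.6 CPM), and in both cases the cycling cells were within counting error of it. Its lowest level was in intermediate cluster 3, at 28.4 and 27.4 CPM. Plk2 was highest in cluster 8 with DMSO (50.1 CPM) and in dendritic cell-like cells with selinexor (73.7 CPM). With DMSO, the Trp53 interval of early neutrophil-like cells (63 to 89 CPM) also overlapped that of macrophage-like cells (53 to 73 CPM). It overlapped that of the low-UMI late neutrophil-like cluster as well (33 to 87 CPM). The DMSO cluster highest in Trp53 was therefore not resolved. Cdkn1a differed between these clusters with DMSO, at 41.6 CPM in early neutrophil-like, 293.9 CPM in cycling and 374.9 CPM in macrophage-like cells. In the low-UMI cluster it was at 839.4 CPM. Whether Trp53 and its target Cdkn1a share an order of clusters was not tested.

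**Figure D3:**
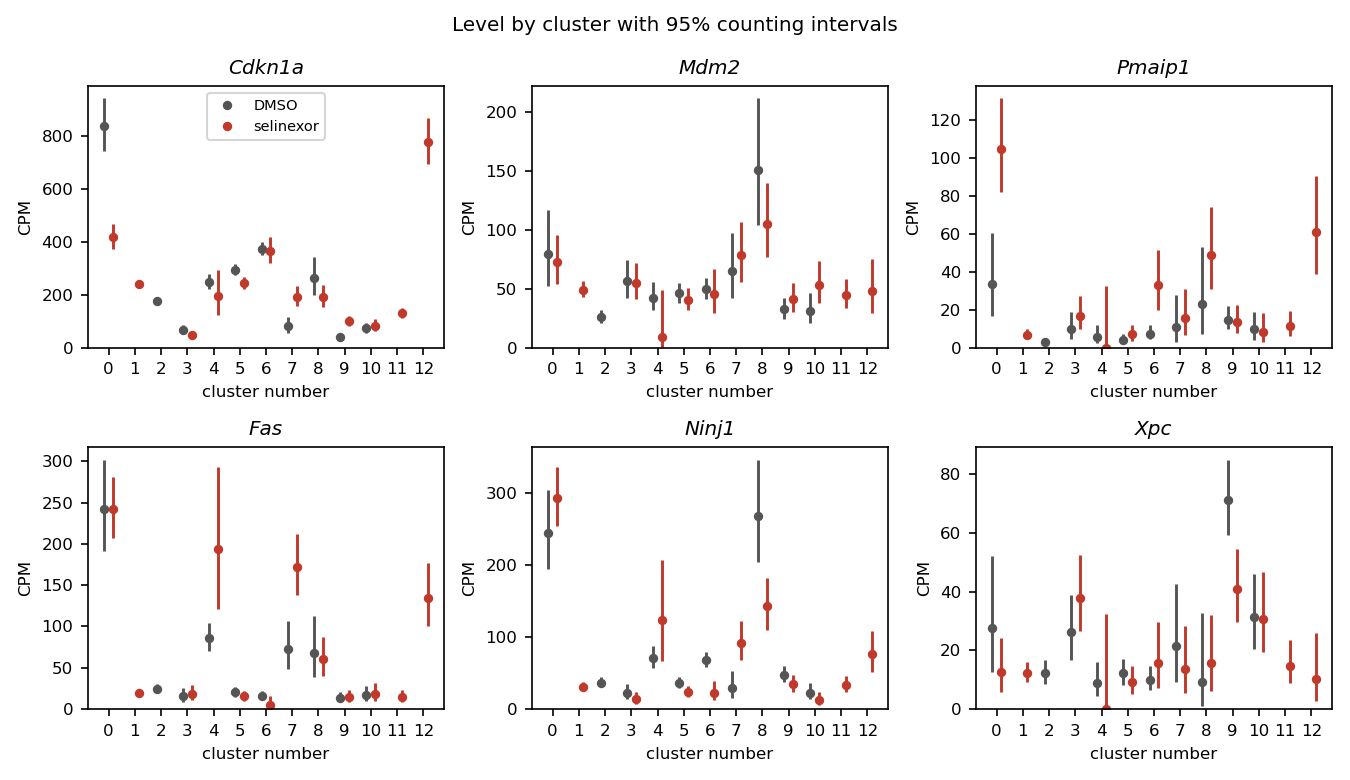
CPM of 6 p53 genes (vertical axes, linear) in each cluster with at least 30 cells in the library (horizontal axes), with DMSO in grey and selinexor in red and 95% Poisson intervals as bars. The cluster 0 points show Cdkn1a at 839 and 419 CPM, Pmaip1 at 33.7 and 104.8 CPM and Fas at 242 CPM in either library, and Xpc is highest in cluster 9.

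The genes whose levels were most like those of 3 central members were named by Pearson's r of log2(CPM + 1) over 14 points and are given as a description. The points were 5 classes of cells in both libraries and 4 further classes in 1 library only, and points of a library share its depth. For Cdkn1a they were Csf1r (r = 0.95), Filip1l (0.95) and Creb5 (0.94). For Mdm2 they were Sqstm1 (0.96), N4bp3 (0.92) and Pigc (0.91), and for Pmaip1 Rnf113a2, Crlf3 and Ankra2 (0.91 each). None of the 9 was itself among the p53 genes, and Csf1r was one of the monocyte markers.

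Within cell classes that had at least 50 cells in each library, differences between selinexor and DMSO were computed class by class, and whether they differ between classes was not tested. Genes with at least 20 UMIs in a class were compared there. Xpo1, the transcript of the inhibited exportin, was 3.01-fold higher in the whole selinexor library (66.4 and 199.98 CPM) and higher in each class compared, by 1.08 in early neutrophil-like and cycling cells, 1.32 in intermediate, 2.29 in late neutrophil-like cells and 2.36 in cluster 8. The p53 genes had differences in both directions, some smaller and some larger than that of Xpo1 in the same class.

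**Figure D4:**
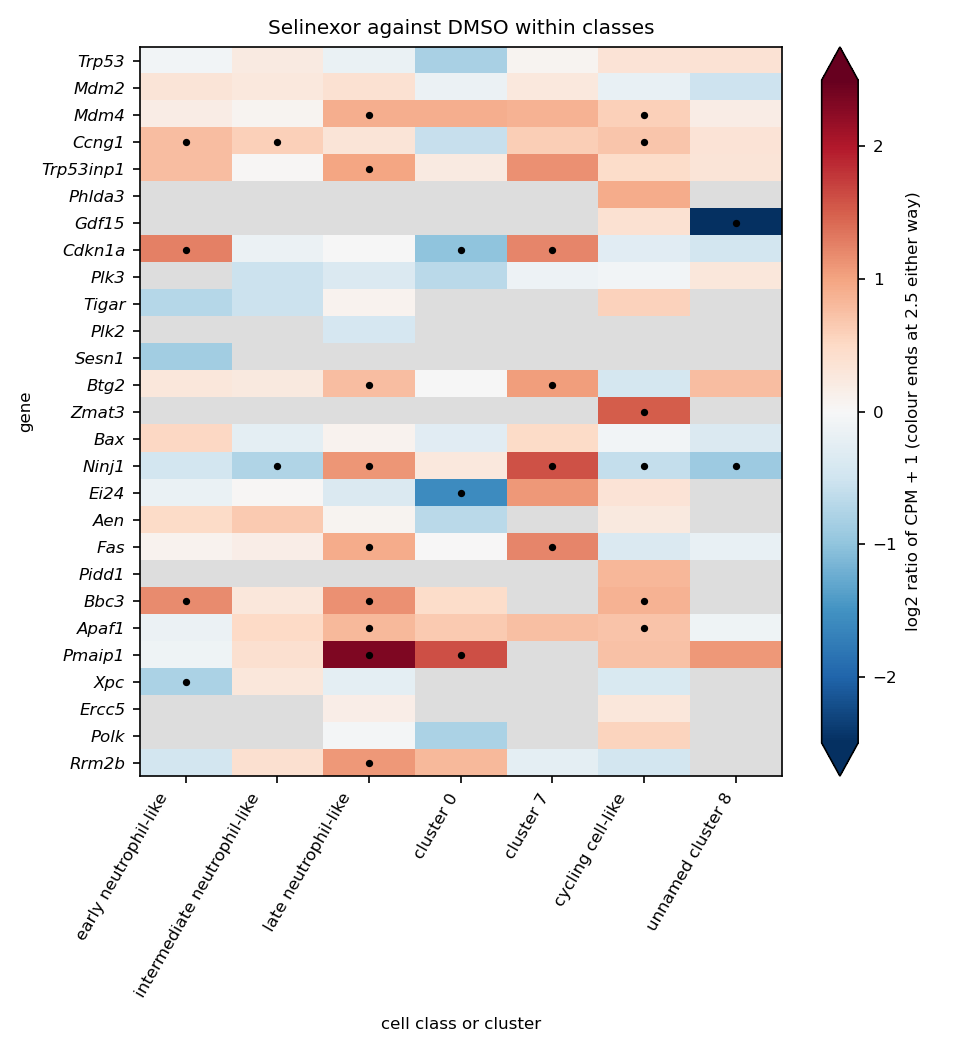
Difference in log2(CPM + 1), selinexor minus DMSO, for p53 genes (rows) in each class or cluster (columns), red for higher and blue for lower with selinexor. Dots mark differences of at least 1.5-fold whose counting interval leaves out 1-fold, and grey marks fewer than 20 UMIs. Cdkn1a is red in early neutrophil-like cells (1.25) and cluster 7 (1.23) and blue in cluster 0 (-0.9999).

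In early neutrophil-like cells (130 with DMSO and 80 with selinexor), 4 of 19 compared genes were higher with selinexor and 3 lower, where 8.12% and 11.8% of all genes were. The median was 0.08, beside -0.10 over all genes, and the median cell had 12992 and 13692 UMIs. Cdkn1a was at 41.6 CPM with DMSO and 100.7 CPM with selinexor, a difference of 1.25 (0.84 to 1.72) from 73 and 111 UMIs. Bbc3 had 13 and 20 UMIs and a difference of 1.19 (0.21 to 2.42), and Ccng1 48 and 52 UMIs and 0.76 (0.19 to 1.38). These 3 genes were named because they differed by at least 1.5-fold with an interval that left out 1-fold. A single selinexor cell gave 15 of the 111 Cdkn1a UMIs. Fewer of the compared genes were called higher after thinning, as given in the closing section. Bax was at 230.3 and 329.2 CPM in early neutrophil-like cells (0.51, interval 0.31 to 0.72), short of 1.5-fold. Xpc went the other way, from 71.3 to 40.8 CPM (-0.79, interval -1.33 to -0.30). Phlda3 had 1 UMI with DMSO and 18 with selinexor, 19 in all and so below the minimum for a comparison. In the same cells the 24 genes repressed through p21 had a median of -0.47, and 7 of them were lower with selinexor and 0 higher. In intermediate neutrophil-like cells this list had a median of -0.30, with 3 lower and 1 higher, while Cdkn1a had -0.15 there. Its median was 0.10 in late neutrophil-like cells (11 genes compared) and -0.00 in cycling cells. Summed markers of early neutrophils over the whole libraries were at 1426 CPM with DMSO and 589.6 CPM with selinexor. Whether the early neutrophil-like cells were equally mature in both libraries was not tested.

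In intermediate neutrophil-like cells (229 and 243), 2 of 19 genes were higher, where 10.1% of all genes were, and 1 was lower, where 11% were. Ccng1 had 45 and 66 UMIs and a difference of 0.60 (0.05 to 1.20), and Ninj1 40 and 22 UMIs and -0.75 (-1.62 to -0.01). The share called higher (10.5%) was thus near that of all genes, and the share called lower was 5.26%. The clusters of this class differed for single genes. In cluster 3, where 3 of 17 genes were higher and 3 lower (14.7% and 15.2% of all genes), Apaf1 was at 36.0 and 72.7 CPM (0.99, interval 0.39 to 1.66) and Ei24 at 20.8 and 7.37 CPM (-1.38, interval -2.99 to -0.18). In cluster 10, where 3 of 13 were higher and 1 lower (10.3% and 11.7% of all genes), Ccng1 was at 19.3 and 46.2 CPM (1.22, interval 0.36 to 2.22), Mdm2 at 31.4 and 53.2 CPM (0.74, interval 0.00 to 1.54) and Ei24 at 18.1 and 36.4 CPM (0.97, interval 0.04 to 2.03).

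In late neutrophil-like cells (573 and 824), 9 of 22 genes were higher and 0 lower, where 26.5% and 8.7% of all genes were. The median was 0.24, beside 0.25 over all genes. By role, 5 of 8 death genes were higher, with a median of 0.87, whereas in cluster 0 alone 2 of 8 were higher and 2 lower, with a median of 0.13. Pmaip1 was at 11.4 CPM with DMSO and 61.6 CPM with selinexor (2.34, interval 1.74 to 3.18), Fas at 109.9 and 211.2 CPM (0.94, interval 0.68 to 1.21) and Ninj1 at 92.8 and 201.4 CPM (1.11, interval 0.84 to 1.399). Bbc3 had 1.14 and Apaf1 0.81. Btg2 had 0.78, Mdm4 0.92, Trp53inp1 0.99 and Rrm2b 1.09. The class, however, was made of different clusters in the libraries: cluster 0 gave 625 of the 824 selinexor cells and 232 of the 573 DMSO cells, of which the largest part, 263, was cluster 4. Median depth in the class was 2558 UMIs with DMSO and 1149 with selinexor.

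The late clusters were therefore read one at a time. In cluster 0, 4 of 18 genes were higher and 6 lower, where 18.6% and 12.9% of all genes were. Pmaip1 kept its direction, at 33.7 and 104.8 CPM (1.61, interval 0.71 to 2.70) from 11 and 74 UMIs. Fas was at 242.0 and 242.2 CPM from 79 and 171 UMIs, and Btg2 had -0.02 from 118 and 252 UMIs, with counting intervals that include 0. Ninj1 had 0.26 (-0.12 to 0.65) from 80 and 207 UMIs. Cdkn1a was at 839.4 CPM with DMSO and 419.2 CPM with selinexor (-0.9999, interval -1.24 to -0.76). Ei24 was at 85.8 and 28.3 CPM (-1.57, interval -2.503 to -0.72). In the class as a whole Fas and Btg2 were higher with selinexor, and cluster 0, where both were highest, made up a larger share of it. Within cluster 7 they also differed, by 1.23 and 1.04. In cluster 4, with 35 selinexor cells, Fas was at 86.0 CPM with DMSO and 193.9 CPM with selinexor (106 and 22 UMIs). Btg2 was at 124.9 and 70.5 CPM there (154 and 8 UMIs). The part of the cluster shares in the class values was not tested.

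Cluster 7, a late neutrophil-like cluster led by Retnlg (78 and 164 cells), had 9 of 14 genes higher and 0 lower, where 25.6% and 9.01% of all genes were, and a median of 0.82 beside 0.20. Cdkn1a was at 81.2 and 191.8 CPM (1.23, interval 0.64 to 1.88). A single selinexor cell gave 18 of its 98 UMIs. Fas was at 73.1 and 172.2 CPM (1.23, interval 0.60 to 1.92), Btg2 at 100.2 and 207.5 CPM (1.04, interval 0.50 to 1.63) and Ninj1 at 29.8 and 92.0 CPM (1.60, interval 0.66 to 2.72). These 4 arrest and death genes were named because they differed by at least 1.5-fold with an interval that left out 1-fold. All 4 are genes whose level is higher in cluster 0 than in cluster 7 in both libraries, and cells at the border of these clusters were not set apart.

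In the cycling cell-like cluster (171 and 104), 8 of 25 genes were higher and 1 lower, where 18% and 6.3% of all genes were. The median was 0.35, beside 0.17 over all genes. Zmat3 had 13 and 30 UMIs and a difference of 1.52 (0.72 to 2.76). Bbc3 had 0.86, Apaf1 0.72, Ccng1 0.69 and Mdm4 0.60, each with an interval above 0. Trp53 was at 71.7 and 90.9 CPM (0.34, interval 0.04 to 0.65), short of 1.5-fold. Cdkn1a, by contrast, was at 293.9 and 242.7 CPM (-0.27, interval -0.45 to -0.11), and Ninj1 at 36.0 and 23.5 CPM (-0.59, interval -1.16 to -0.08). By role, 3 of 6 feedback genes and 4 of 9 death genes were higher and 1 death gene, Ninj1, was lower. Mdm2 (-0.19), Fas (-0.35) and Bax (-0.06) had values below 0 with intervals that include 0. After thinning to 2000 UMIs, 2 genes were higher. The median cell of this class had 15348 UMIs with DMSO and 17531 with selinexor. Thinning thus removed most UMIs of its sparse genes, and the counts before and after it are not alike. At clustering resolution 2.0, the cycling cell-like cells fell apart nearly by library. A cluster there held 143 DMSO cells and 1 selinexor cell, and another held 27 and 110. Whether cells of the same state were compared in the cycling class was not tested.

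Unnamed cluster 8 (72 and 150 cells, with 219550 and 447765 UMIs in all) gave 2 of 14 genes higher and 2 lower, where 17.9% and 19.4% of all genes were. Gdf15 was at 100.2 CPM with DMSO and 11.2 CPM with selinexor (-3.06, interval -4.92 to -1.73). The DMSO value rested on 22 UMIs in 12 cells with at most 3 in a cell. Cluster 8 had the highest DMSO level of Gdf15, but of the 135 DMSO UMIs in all, 54 lay in cluster 2, 31 in the cycling cluster and 17 in macrophage-like cells. With selinexor, 52 of 98 UMIs lay in the monocyte-like cluster and 29 in the cycling cluster. Ninj1 was at 268.7 and 142.9 CPM (-0.91, interval -1.44 to -0.38).

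The split of cells by Mki67 or Top2a separated some of the same genes. In cells without a UMI of either gene, Pmaip1 was at 8.50 CPM with DMSO and 31.8 CPM with selinexor (1.79), and in cells with one at 7.35 and 11.5 CPM (0.58). Ninj1 had 0.34 (0.14 to 0.55) in the first and -0.47 (-0.72 to -0.25) in the second. Xpc had 0.06 in the first and -0.44 (-0.76 to -0.16) in the second, and Gdf15 -1.15 and 0.20. Apaf1 and Ccng1 had nearly equal values in both, 0.70 and 0.56 for Apaf1 and 0.49 and 0.50 for Ccng1. Holding such a UMI also depends on a cell's depth, and the difference between the sets of cells was not tested.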

How the data were processed

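A pair of 10x Genomics libraries was compared, 1 per group. The deposited matrices hold raw UMI counts per gene and cell barcode, for which the submitters' processing notes name Cell Ranger 6.1.2 and mm10. Sources used here give neither the annotation release nor how cells were called. The 12 multiplexing tags listed per the file headers entered no gene total, and 0 barcodes were shared between libraries.

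Barcodes were kept from 200 detected genes upward if mitochondrial transcripts stayed below 10% (1743 of 1784 and 1967 of 1989). No doublet caller was used, because calls in an earlier run were few and changed with numerical settings. An alternative left out the 5% of cells with the most UMIs. Counts were summed per library or class and scaled to CPM. Ratio intervals are exact conditional binomial (Clopper-Pearson) and level intervals exact Poisson, at 95%. The calculation was tested on simulated data.

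Cells were clustered jointly (scanpy 1.11.5, leidenalg 0.10.2, 2000 variable genes without the p53 genes, 30 components, 15 neighbours, resolution 1), giving 14 clusters. Clusters were named from marker lists by a scoring set after the clusters were seen: 3 or more markers at 10 or more UMIs had to be 2-fold higher, and its own markers could not be outnumbered by another class among the 10 leading genes. The members and lists were chosen with earlier results of these data known. The list gene Kitlg was not matched by symbol.

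Genes were named by a rule. It takes every member with at least 50 UMIs, members 1.5-fold apart in a class with an interval leaving out 1-fold, the 4 largest differences of each list, Xpo1, and the 3 genes most like Cdkn1a, Mdm2 and Pmaip1. Other values given in classes were chosen after they were seen. Gene coordinates come from GENCODE on mm10. TMM factors came from edgeR 4.0.16, used for scaling only. Thinning to 2000 UMIs kept 1429 and 1184 cells and left out 314 and 783.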

Additional observations from a re-analysis of the deposited data

Results flagged for a closer look

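For 3 genes the difference between the libraries had opposite directions in different cells, each with a counting interval that leaves out 1-fold. Whether these differences differ from each other was not tested, since each group held 1 library. Cdkn1a had a log2 difference of 1.25 in early neutrophil-like cells and 1.23 in cluster 7 and -0.9999 in cluster 0, while the whole libraries had -0.02. Ninj1 had 1.11 in late neutrophil-like cells and 1.60 in cluster 7, which is part of them. Against these stood -0.75 in intermediate neutrophil-like cells, -0.59 in cycling cells and -0.91 in unnamed cluster 8. In cluster 0, the largest late cluster with selinexor, Ninj1 had 0.26 with an interval that includes 0. Ei24 had 0.97 in intermediate cluster 10, against -1.38 in intermediate cluster 3 and -1.57 in cluster 0.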

How the results depend on the processing

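No paired analysis was possible because each group held 1 library and the results come from no test. Leaving out a library would remove its group. Of the values that answer a comparison, 88 stayed near their reported value under an alternative and 36 moved. Over whole libraries, the 5 genes called higher became 3 with TMM scaling, median-of-ratios scaling or thinning and 2 with the same cell mix. The 0 genes called lower (3.88% of all genes) became 1 with cells weighted equally (6.31%) and 1 of 24 once Mki67 or Top2a cells were removed (4.15%). They became 5 of 29 with the same cell mix (6.59%), namely Cdkn1a -0.61, Plk2 -1.23, Gdf15 -1.68, Ei24 -0.78 and Tnfrsf10b -0.63. That mix also gave medians of 0.15 for feedback genes, -0.40 for arrest and stress genes and -0.078 for the genes repressed through p21, which had -0.49 with cells weighted equally. Thinning leaves out most shallow cells, which are mainly late neutrophil-like. It also cuts the UMIs of each gene in deep cells, so a lower count after thinning can reflect fewer UMIs. The class counts that follow are given without shares over all genes and are a description only. In the classes, with the reported count first, early neutrophil-like cells had 4 higher and then 7 at resolution 0.5 and 1 after thinning, and 3 lower and then 1 after thinning. Intermediate cells had 2 higher and then 4 at resolution 0.5, 0 at resolution 2.0, 4 after thinning and 6 with cells weighted equally, and 1 lower and then 0 with centred values or thinning and 2 with equal weights. Late cells had 9 higher and then 5 after thinning and 4 in cluster 0 alone, and 0 lower and then 4 at resolution 0.5, 2 at resolution 2.0, 1 after thinning, 5 with equal weights and 6 in cluster 0 alone. Cycling cells had 8 higher and then 2 after thinning, and 1 lower and then 0 at either resolution and with centred values. Cluster 8 had 2 higher and then 0 after thinning and 5 with equal weights, and 2 lower and then 1 under both. Called single values that changed sign were Phlda3 after thinning (-0.15), Ninj1 in intermediate cells at resolution 0.5 (0.028), Btg2 in cluster 0 alone (-0.018) and Rrm2b in cluster 7 alone (-0.24). Phlda3 was already sparse before thinning, so its change of sign is not read as a reversal. Of the 25 genes not called over whole libraries, 18 changed sign under at least 1 alternative, among them Trp53 with cells weighted equally (-0.055). The cause was not tested. Centred values left 31 early selinexor cells, too few for a value. The single-cluster readings of the late class were chosen after seeing the data.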
